A study of Mus musculus with 4 samples.

Results

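The enzymes of the energy-investing steps of glycolysis, from hexokinase to triosephosphate isomerase, were followed in Th17 cells, a class of helper T cells, from mice without PRAK and from wild-type mice. Mapkapk5 encodes PRAK, a protein kinase that p38 regulates and activates. The set was chosen by gene symbol and held 9 genes of the 17921 in the table: Hk1, Hk2, Gpi1, Pfkl, Pfkm, Pfkp, Aldoa, Aldoc and Tpi1. All 9 were found and all 9 passed the filter on low counts. RNA was sequenced from the cells of 2 PRAK KO mice and 2 wild-type (WT) mice, with 1 library per mouse. In each case naive CD4+ T cells had been driven towards Th17 in culture for 72 h, and the whole culture was used on day 3. Library names (WT 1, WT 2, KO 1, KO 2) carry the numbers of the mice. Strain, age, sex and knockout allele were not stated in the sources used here, and the labels name no other deletion or agent in either group.

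Glycolysis begins by spending ATP. Hexokinases phosphorylate glucose and so trap it in the cell, phosphoglucose isomerase turns the product into its fructose form, and phosphofructokinase adds another phosphate in the main committed step of the pathway. Aldolase then splits the sugar, and triosephosphate isomerase interconverts the products so that both can continue. Activated T cells are known to raise this pathway, and many of its genes are known targets of hypoxia-inducible factor and of MYC.

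The libraries held 19418012 to 20125124 expected counts, which are reads per gene as estimated by the authors. Mapkapk5 stood at 29.8 and 31.1 TPM in WT 1 and WT 2 and at 18.3 and 18.4 TPM in KO 1 and KO 2, where TPM is a level per transcript length scaled to the same sum in each library. It fell by 0.83 on the log2 scale (adjusted p = 0.0194, edgeR), a call that was lost on leaving out WT 1 (0.0918) or WT 2 (0.169). The deleted part of the gene is not given in the labels, so this value checks the labels only in part. T cell markers were present in every library, with sums of 1857 and 1922 CPM (counts scaled to a common library total with TMM factors) in WT and 1408 and 1999 in KO over the 4 of 5 found. Of all genes tested 5.14% were called higher and 8.23% lower. Of 10 myeloid markers 7 rose, and the list summed to 61.7 and 83.3 CPM in WT 1 and WT 2 and to 148 and 321 in KO 1 and KO 2. Among 6 CD8 T and NK markers Nkg7 rose, and that list summed to 60.9 and 158 CPM in WT and 367 and 305 in KO. Among 5 B cell markers Ms4a1 rose, and their sums were 30.4 and 66.2 CPM in WT and 80.6 and 78.9 in KO. The 5 erythroid markers summed to at most 7.01 CPM in any library. None of these lists had a marker at 0 in all 4 libraries. Of 5 Th17 markers Ccr6 rose and Il23r fell, and the list summed to 3012, 2722, 2910.4 and 1131 CPM in WT 1, WT 2, KO 1 and KO 2. The part of these shifts in the results was not tested. The 5 proliferation markers did not pass the test, with sums of 2552 and 2408 CPM in WT and 2520.0 and 1929 in KO.

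In KO cells at least 1 gene of every step of upper glycolysis fell. Of the 9 enzyme genes 8 fell (adjusted p under 0.05), and Hk2 did not pass, while 8.23% of the 12680 genes tested were called lower. Summed over the 9 genes, the level was 8758 and 8857 TPM in WT 1 and WT 2 and 4563 and 4195 TPM in KO 1 and KO 2, so that the KO mean was 49.7% of the WT mean. For each of the 9 genes both KO libraries lay below both WT libraries in CPM, as was the case for 31.4% of the genes tested. The median log2 fold change of the 9 genes was -1.10, beside 0.02 for all genes tested. For 7 of the 9 the fall was called with a log2 fold change of -1 or lower, beside 5.09% of the genes tested. In bulk RNA, fewer cells with these transcripts and less transcript per cell cannot be told apart.

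The count of 8 changed when a library was left out, a fit whose within-genotype spread comes only from the genotype with both libraries. It was 2 without WT 1 and 2 without WT 2, in both cases Hk1 and Pfkm, and 9 without KO 1 or without KO 2. The share of all genes called lower moved too. With WT 1 left out it was 3.87% (1.59% were called higher), and with WT 2 left out 3.43% (1.85% higher). With KO 1 left out it was 18.7% (17.3% higher), and with KO 2 left out 24.0% (22.2% higher). The log2 fold changes of all 9 genes stayed below 0 in each of these fits. Scaled by library size alone, 7 of the 9 were called lower, where 6.81% of all genes were called lower and 7.24% higher (8.23% and 5.14% with TMM scaling). With it Pfkl lost its call, and the median change over all tested genes went from 0.02 to 0.12 (log2).

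**Figure D1:**
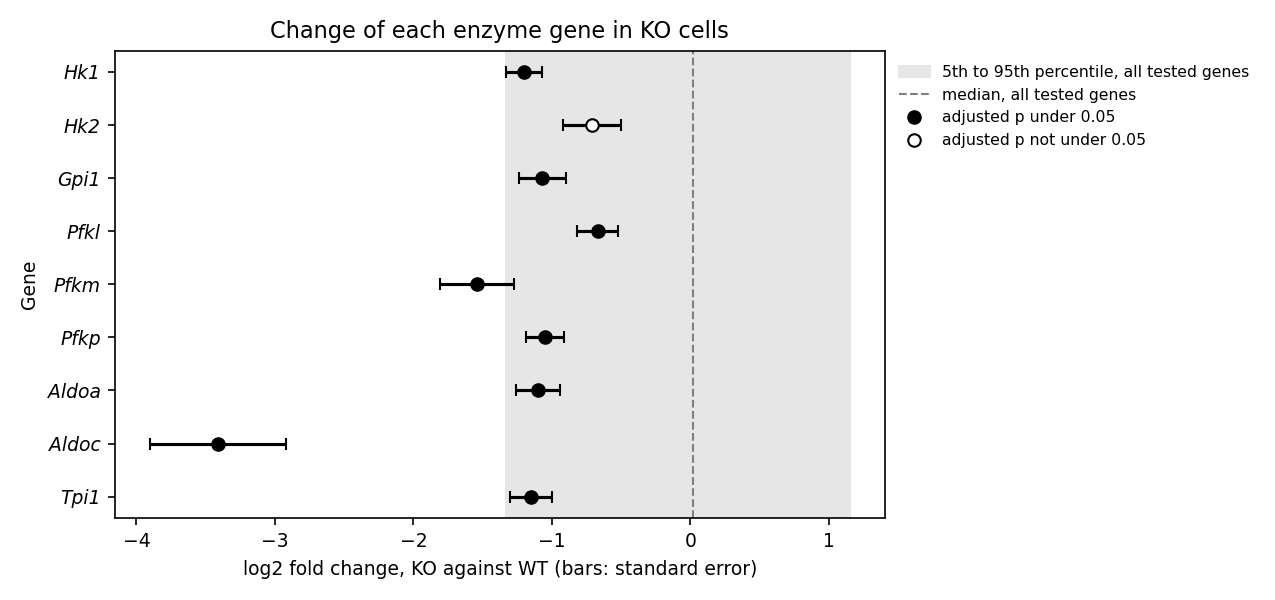
Log2 fold change of each enzyme gene in KO against WT with its standard error (n = 2 libraries per genotype). Filled points passed the test, the open point (Hk2, -0.71) did not, and the grey band spans the 5th to 95th percentile of all genes tested (-1.33 to 1.15). All 9 points lie below 0, and Aldoc at -3.41 and Pfkm at -1.54 lie outside the band.

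Promoter windows were read for the genes because most of them fell together. They come from RefSeq (GRCm38.p6), which matched all 9 genes with 16 start sites, and the 250 bases before each start were searched on both strands. The motifs were ACGTG and GCGTG, the core of the hypoxia response element, CACGTG, the E-box bound by MYC, which contains ACGTG, and TGACNNNGC, the core of the antioxidant response element bound by NRF2. The windows at the outermost start of 4 genes are shown 5′ to 3′ on the gene's strand, with matches to ACGTG or GCGTG on either strand in capitals. Hk2 is the gene that was not called, Aldoc the gene with the largest fall, Pfkp the most abundant phosphofructokinase, and Tpi1 a gene that fell with no match in its window.
Hk2, chr6:82774455-82774704, minus strand: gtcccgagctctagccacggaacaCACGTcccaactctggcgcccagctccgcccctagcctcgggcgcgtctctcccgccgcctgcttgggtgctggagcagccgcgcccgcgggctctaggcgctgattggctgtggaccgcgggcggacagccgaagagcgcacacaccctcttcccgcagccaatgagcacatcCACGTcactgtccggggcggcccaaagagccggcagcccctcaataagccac
Aldoc, chr11:78322823-78323072, plus strand: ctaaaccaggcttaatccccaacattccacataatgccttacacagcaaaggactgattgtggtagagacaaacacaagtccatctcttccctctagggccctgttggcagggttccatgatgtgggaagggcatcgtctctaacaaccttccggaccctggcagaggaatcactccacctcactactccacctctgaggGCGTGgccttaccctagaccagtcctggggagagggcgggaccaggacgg
Pfkp, chr13:6648772-6649021, minus strand: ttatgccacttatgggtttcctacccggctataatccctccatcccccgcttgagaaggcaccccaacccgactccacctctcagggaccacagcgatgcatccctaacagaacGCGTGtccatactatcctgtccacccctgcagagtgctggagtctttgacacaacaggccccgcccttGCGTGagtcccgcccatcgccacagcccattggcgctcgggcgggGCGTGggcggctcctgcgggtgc
Tpi1, chr6:124814159-124814408, minus strand: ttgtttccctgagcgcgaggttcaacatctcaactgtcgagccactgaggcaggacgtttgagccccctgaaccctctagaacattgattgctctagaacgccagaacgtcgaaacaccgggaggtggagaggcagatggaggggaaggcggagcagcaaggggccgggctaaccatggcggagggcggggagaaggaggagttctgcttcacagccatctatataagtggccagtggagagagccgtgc

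The Hk2 window held ACGTG on the opposite strand, with matches that begin 226 and 52 bases before the start. The Aldoc window held 1 GCGTG, 50 bases before the start, and the Pfkp window held 3, at 136, 68 and 23 bases. Over their outermost starts 5 of the 9 genes held ACGTG or GCGTG, and 7 of 9 did in at least 1 of their windows, of which there are up to 4 for a gene. Over single windows the motifs were in 11 of 16. Windows at neighbouring starts of Aldoa and of Pfkm overlap, so the same match was counted more than once. Of all 32851 promoter windows of this length, 38.6% held either motif. CACGTG was found in 1 of the 16 windows, for Pfkm, beside 6.0% of all windows. TGACNNNGC was found in 2 of the 16, at inner starts of Aldoa and Hk1, beside 10.2% of all windows. The matches are given as a description. Their part in the falls, and which start sites these cells use, was not tested.

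At the first step Hk1 fell and Hk2 did not pass. Hk1 (chromosome 10, 62268855 to 62379920) encodes the broadly expressed hexokinase that sits on mitochondria. It stood at 421 and 384 TPM in WT 1 and WT 2 and at 191 and 185 TPM in KO 1 and KO 2. The KO libraries were close to each other and far below both WT libraries. The fitted level was 2.29-fold lower in KO, a log2 fold change of -1.20 ± 0.13 (standard error, SE). The adjusted p was 0.00833 in edgeR, and the call held when any 1 library was left out.

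Hk2 (chromosome 6, 82725025 to 82774454) encodes the inducible hexokinase of muscle, fat and many tumours. Its level was 105 and 93.2 TPM in WT 1 and WT 2 and 80.2 and 50.3 TPM in KO 1 and KO 2. Both KO libraries were lower, but KO 1 was much nearer to WT than KO 2 was. The log2 fold change was -0.71 ± 0.21 (SE; adjusted p = 0.0861, edgeR), and DESeq2 gave an adjusted p of 0.0116. It was -1.04 without KO 1 and -0.45 without KO 2 (edgeR adjusted p = 3.42e-05 and 0.00380), so the size of the change rested on which KO mouse was kept.

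Hk3 and Hkdc1 were scarce. Hk3, a hexokinase of myeloid cells, rose by 2.87 on the log2 scale (adjusted p = 0.0278, edgeR), from 5 and 15 counts in WT to 83 and 73 in KO. Leaving out WT 1 gave 2.27 (adjusted p = 0.0791), and leaving out WT 2 gave 3.86. The myeloid markers given above rose in the same libraries, and their part in the level of Hk3 was not tested. Hkdc1, a further hexokinase family gene, had 2 counts in KO 2 and 0 in the other libraries.

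Gpi1 (chromosome 7, 34201327 to 34230336), the single phosphoglucose isomerase gene, fell at the next step. It stood at 1078 and 1186 TPM in WT 1 and WT 2 and at 559 and 596 TPM in KO 1 and KO 2. The genotypes were far apart beside the spread within each. The log2 fold change was -1.07 ± 0.17 (SE, adjusted p = 0.0177, edgeR), with an adjusted p of 0.0727 without WT 1 and 0.153 without WT 2.

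All 3 phosphofructokinase genes fell, with log2 fold changes between -1.54 and -0.67. Pfkp (chromosome 13, 6579874 to 6649060), the platelet isozyme, was the most abundant, at 552 and 502 TPM in WT 1 and WT 2 and 297 and 259 TPM in KO 1 and KO 2. Pfkl (chromosome 10, 77986947 to 78009807), the liver isozyme, stood at 221 and 182 TPM in WT and 153 and 119 TPM in KO. For Pfkl the highest KO library came close to the lowest WT library, and the libraries of each genotype were well apart. The log2 fold changes were -1.05 ± 0.14 (SE) for Pfkp (adjusted p = 0.0113) and -0.67 ± 0.15 (SE) for Pfkl (adjusted p = 0.0471, edgeR). Pfkl was the weakest call of the 8. It was lost with library size alone (adjusted p = 0.0642), in limma on log2(TPM + 1) (0.104), without WT 1 (0.355) and without WT 2 (0.155). The call of Pfkp was lost when WT 1 (adjusted p = 0.0839) or WT 2 (0.0579) was left out.

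Pfkm (chromosome 15, 98092589 to 98132447), the muscle isozyme, was the least abundant of the 9 genes in WT. It stood at 47.7 and 47.9 TPM in WT 1 and WT 2, nearly the same, and at 13.0 and 21.6 TPM in KO 1 and KO 2. The fall was larger in KO 1. The log2 fold change was -1.54 ± 0.27 (SE, adjusted p = 0.0247, edgeR), and the call held without any 1 library. It was -1.19 without KO 1 and -2.02 without KO 2.

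At the aldolase step both genes fell. Aldoa (chromosome 7, 126795234 to 126800994), the aldolase of muscle and most other tissues, was the most abundant of the 9 genes and ranked 22 among all tested genes by WT TPM. It stood at 4182 and 4322 TPM in WT 1 and WT 2 and at 2245 and 2028 TPM in KO 1 and KO 2. The level was roughly the same within each genotype and much lower in KO. The fitted change was -1.10 ± 0.16 (log2, SE; adjusted p = 0.0153, edgeR). Leaving out WT 1 or WT 2 raised the adjusted p to 0.111 or 0.164.

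Aldoc (chromosome 11, 78323073 to 78327781), the brain aldolase and a known target of hypoxia-inducible factor, had the lowest log2 fold change of the 9 genes. Its level was 142 and 153 TPM in WT 1 and WT 2 and 7.80 and 21.5 TPM in KO 1 and KO 2, from 4042, 4385, 215 and 617 counts. Every KO value was far below WT, and KO 2 was 2.76 times KO 1. The log2 fold change was -3.41 ± 0.49 (SE), or 10.6-fold lower (adjusted p = 0.0148, edgeR), and 0.781% of all genes tested had a lower value. It was -2.83 without KO 1 and -4.39 without KO 2. The call was lost when WT 1 (adjusted p = 0.303) or WT 2 (0.377) was left out.

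Tpi1 (chromosome 6, 124810586 to 124814158), the triosephosphate isomerase gene, fell at the last of these steps. It stood at 2009.7 and 1986 TPM in WT 1 and WT 2 and at 1016 and 914 TPM in KO 1 and KO 2. The WT libraries were almost equal, and both KO libraries were far lower. The log2 fold change was -1.15 ± 0.15 (SE, adjusted p = 0.0106, edgeR), with an adjusted p of 0.0652 without WT 1 and 0.0737 without WT 2.

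**Figure D2:**
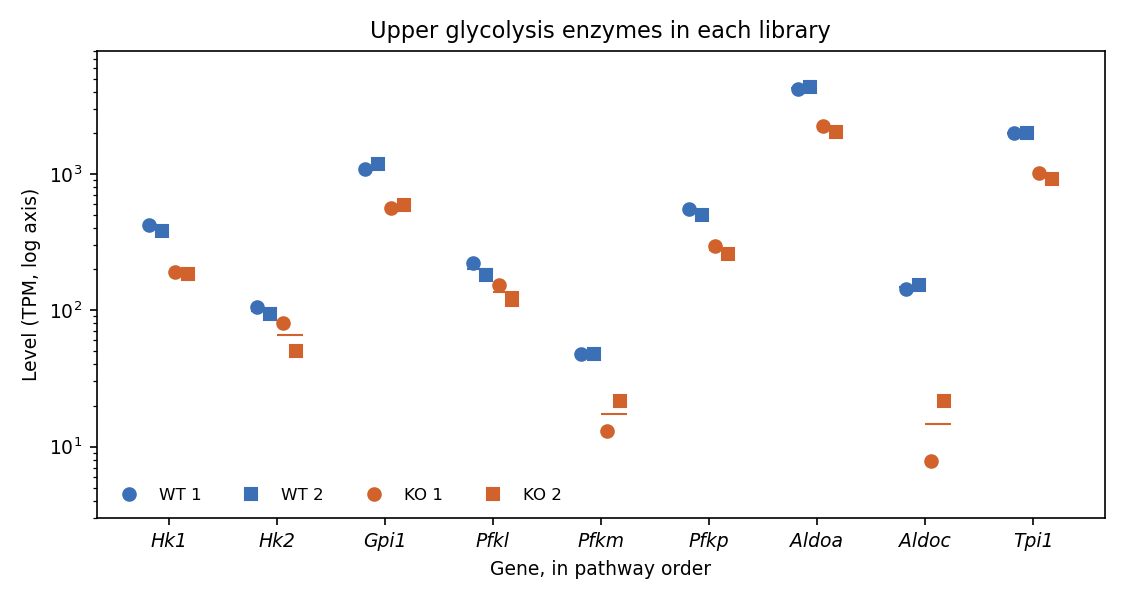
Level in TPM on a log axis for each of the 9 enzyme genes, with 1 point per library and a line at the mean of each genotype. The KO points lie below the WT points for each gene, from 4182 and 4322 against 2245 and 2028 TPM for Aldoa to 142 and 153 against 7.80 and 21.5 TPM for Aldoc.

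The genes kept nearly the same order of level. In WT the order by mean TPM was Aldoa, Tpi1, Gpi1, Pfkp, Hk1, Pfkl, Aldoc, Hk2 and Pfkm, and no neighbours overlapped in that order. In KO the order was the same for the first 6 genes, and Aldoc moved from place 7 to place 9. Pfkm and Aldoc overlapped in KO, at 13.0 and 21.6 against 7.80 and 21.5 TPM.

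Summed over isozymes, the KO level was a like fraction of the WT level at each of the 5 steps. Hexokinase transcripts (Hk1 and Hk2) averaged 502 ± 34.0 TPM in WT and 253 ± 25.2 in KO (SD, n = 2), or 50.5% of WT. The KO mean was 51.0% of WT for phosphoglucose isomerase, 55.6% for phosphofructokinase, 48.9% for aldolase and 48.3% for triosephosphate isomerase. The phosphofructokinase sum was 776 ± 62.4 TPM in WT and 432 ± 45.0 in KO. The aldolase sum was 4399 ± 106 TPM in WT and 2151 ± 144 in KO. Single KO libraries ranged from 45.7% (triosephosphate isomerase, KO 2) to 59.7% (phosphofructokinase, KO 1). KO 1 was the higher KO library at each step but phosphoglucose isomerase.

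**Figure D3:**
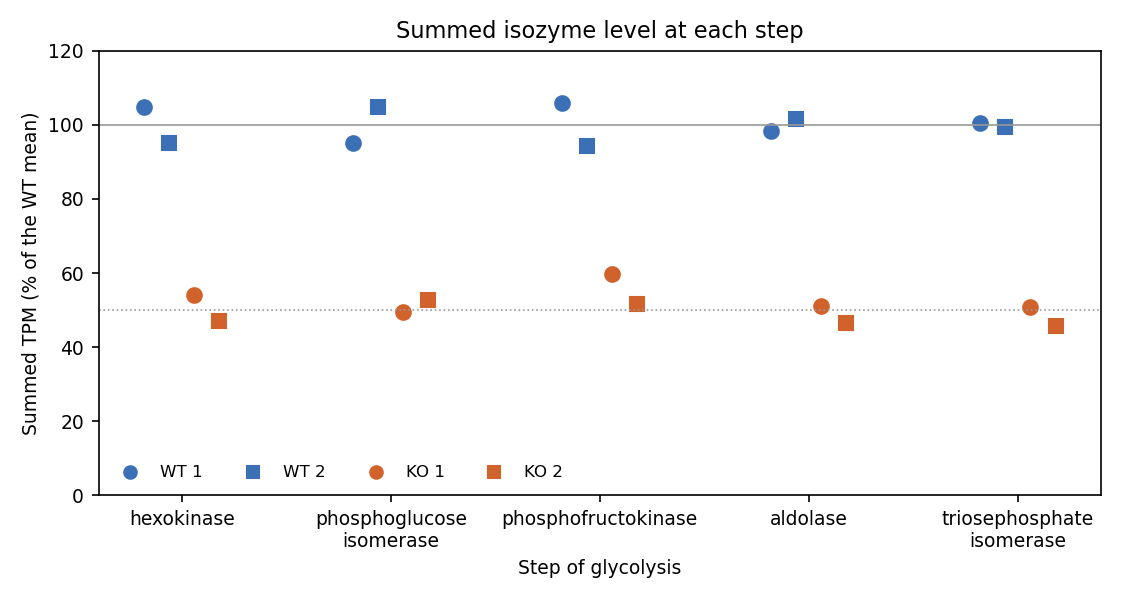
Summed TPM of the enzyme genes of each step, as a percentage of the WT mean, with 1 point per library. The WT points lie near 100 and the KO points between 45.7% and 59.7% at all 5 steps.

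Ratios between steps overlapped between the genotypes for some pairs of steps and not for others. Aldolase exceeded triosephosphate isomerase by 2.15 and 2.25 times in WT and by 2.22 and 2.24 times in KO, which overlap. Phosphoglucose isomerase exceeded hexokinase by 2.05 and 2.48 times in WT and by 2.06 and 2.53 times in KO. This last ratio differed more between mice of the same genotype than between genotypes. The ratio of phosphofructokinase to hexokinase was 1.56 and 1.53 in WT and 1.71 and 1.70 in KO, with no overlap. The ratio of aldolase to phosphofructokinase was 5.27 and 6.11 in WT and 4.86 and 5.12 in KO, also with no overlap. Here the WT libraries differed more from each other than WT 1 did from KO 2. The ratio of aldolase to hexokinase was 8.23 and 9.37 in WT and 8.31 and 8.70 in KO, which overlap. With 2 against 2 libraries no overlap has a probability of 0.333 when genotype plays no part, so the ratios are a description.

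Isozyme shares within each family lay apart between the genotypes, and TPM allows this comparison because it is a level per length. Hk2 made up 20.0% and 19.5% of hexokinase TPM (Hk1 and Hk2) in WT 1 and WT 2 and 29.6% and 21.4% in KO 1 and KO 2. The share was above both WT values in both KO libraries, but by very different amounts. The mean difference was 5.72 percentage points, and it was 1.61 without KO 1 and 9.82 without KO 2.

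Pfkp made up 67.3% and 68.5% of phosphofructokinase TPM in WT and 64.2% and 64.7% in KO. Pfkl made up 26.9% and 24.9% in WT and 33.0% and 29.8% in KO. Pfkm made up 5.81% and 6.55% in WT and 2.81% and 5.41% in KO. The Pfkl share was thus higher in both KO libraries and the other shares lower, with mean differences of 5.54, -3.47 and -2.07 points for Pfkl, Pfkp and Pfkm. Aldoc made up 3.29% and 3.41% of aldolase TPM (Aldoa and Aldoc) in WT and 0.346% and 1.05% in KO, a difference of -2.65 points. No share overlapped between the genotypes. An exact two-sided permutation test over 2 against 2 libraries gave p = 0.333 for each share, the smallest value it can give, so no difference in share could pass.

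**Figure D4:**
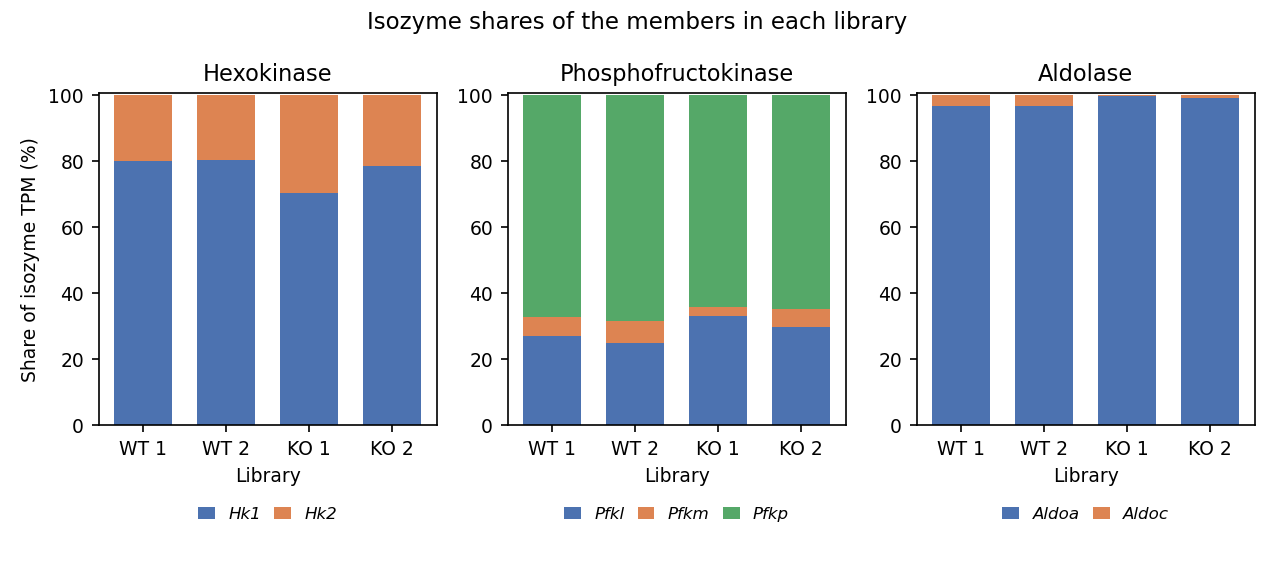
Share of each isozyme in the summed TPM of its family, 1 stacked bar per library. Hk2 holds 20.0% and 19.5% in WT and 29.6% and 21.4% in KO, while Pfkp is in each library the main phosphofructokinase (64.2% to 68.5%) and Aldoa the main aldolase (96.6% to 99.7%).

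The KO mice differed from each other mainly in the less abundant isozymes. On the log2 TPM scale KO 2 minus KO 1 was 1.46 for Aldoc, 0.73 for Pfkm and -0.67 for Hk2. It lay between -0.36 and 0.09 for the other 6 genes. The same difference between WT 2 and WT 1 lay between -0.28 (Pfkl) and 0.14 (Gpi1) over all 9 genes.

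Read assignment bears unequally on the genes. Between protein-coding transcripts of isozymes (GENCODE M21, GRCm38) the longest identical run was 27 bases, for Hk1 and Hk2. Hk1, Hk2, Pfkp and Aldoc shared no stretch of 50 bases with a transcript of another gene, and Pfkl shared 0.0532% of its stretches. Shares were 6.57% for Aldoa, with 6 genes that include Aldoart1, 6.83% for Tpi1, with Tpi-rs11 and 1 unnamed gene, 8.83% for Pfkm, with Gm26513, and 18.6% for Gpi1, over 51 genes. The deposited count was exactly whole in all 4 libraries for Hk1, Hk2, Aldoc and Tpi1 and in none for Gpi1, Pfkl, Pfkm, Pfkp and Aldoa, so the shared stretches do not order the genes by how their reads were assigned. In RefSeq the spans of 4 genes overlap other genes, namely Hk1 (Hk1os), Pfkm (Senp1), Pfkp (Pitrm1 and Gm35730) and Tpi1 (Spsb2), and whether strand was used in counting was not stated in the sources used here. The length that count and FPKM imply for each gene varied by at most 0.808% between libraries, except for Pfkp, where it was 3216 and 3239 bases in WT and 3109 and 3231 in KO 1 and KO 2. Such a length shifts when the mix of transcripts assigned to a gene shifts.

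Other genes of the pathway were followed in fixed lists. Of 10 tested genes of lower glycolysis 5 fell (Gapdh, Pgk1, Pgam1, Eno1 and Pkm) and 5 did not pass, with a median log2 fold change of -0.84 beside 0.02 for all genes, of which 8.23% were called lower. Pgk1, phosphoglycerate kinase, stood at 2954 and 2957 TPM in WT and 1351 and 1045 in KO (-1.41, adjusted p = 0.0102, edgeR). Pgam1, phosphoglycerate mutase, stood at 1775 and 1666 TPM in WT and 1016 and 737 in KO (-1.08, adjusted p = 0.0226, edgeR; 0.111 without WT 1 and 0.0976 without WT 2). In both genes each KO library was below each WT library, as was the case in CPM for 31.4% of the genes tested. Both were named for having the smallest p among the falls of the list, so this order adds nothing to the calls. The 5 falls of the list became 1 without WT 1 and 1 without WT 2 (3.87% and 3.43% of all genes were called lower there). They became 7 without KO 1, with 2 rises, and 7 without KO 2 (18.7% and 24.0% of all genes lower). In limma on log2(TPM + 1) the list had 0 rises and 2 falls, beside 4.89% of all genes called higher and 6.18% called lower.

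Of 6 glucose and lactate transporter genes 3 fell (Slc2a1, Slc2a3 and Slc16a3), 1 rose and 2 did not pass, beside 8.23% of all genes called lower and 5.14% called higher. Slc2a3, the high-affinity glucose transporter, stood at 529 and 550.1 TPM in WT and 18.7 and 31.7 in KO (-4.52, adjusted p = 0.00321, edgeR), beside -3.41 for Aldoc among the enzymes. Slc16a3, which exports lactate, stood at 455 and 395 TPM in WT and 166 and 151 in KO (-1.52, adjusted p = 0.00459). Slc2a6 rose from 13.6 and 13.5 TPM to 27.5 and 28.6 (0.92, adjusted p = 0.0180, edgeR; 0.121 without WT 1 and 0.122 without WT 2). Of 7 genes that set the level of fructose bisphosphates 5 were tested, of which Pfkfb3, an activator of phosphofructokinase through its product, fell and 4 did not pass, where 8.23% of all genes were called lower. Pfkfb3 stood at 58.7 and 56.2 TPM in WT and 33.2 and 35.9 in KO (-0.84, adjusted p = 0.0146, edgeR; 0.0723 without WT 1 and 0.0595 without WT 2). The transporter list had 5 falls without KO 1 (18.7% of all genes), and the Pfkfb list had 1 rise and 2 falls without KO 2 (22.2% of all genes higher and 24.0% lower).

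Genes that lead metabolites out of upper glycolysis were counted next. Of 15 tested genes of the pentose phosphate, glycogen, hexosamine, mannose and glycerol phosphate branches 1 fell, Pgm2, and 14 did not pass, with a median log2 fold change of 0.01. That count is near the 8.23% of all genes called lower, and so says nothing particular of these branches. Pgm2, a phosphoglucomutase gene, stood at 217 and 216 TPM in WT and 73.3 and 62.4 in KO (-1.77, adjusted p = 0.00242, edgeR), a clear fall in both KO libraries. These counts were 1 rise and 4 falls without KO 1 and 3 rises and 2 falls without KO 2, fits in which many more of all genes were called, as given above. Of 14 tested regulators of glycolytic genes 3 fell, Egln1, Egln3 and Vhl, and 11 did not pass, with a median of -0.22, where 8.23% of all genes were called lower. All 3 act in the oxygen-dependent removal of hypoxia-inducible factor. Egln1 stood at 203 and 183 TPM in WT and 80.6 and 69.4 in KO (-1.47, adjusted p = 0.00415), and Vhl at 37.5 and 36.9 TPM in WT and 18.8 and 16.8 in KO (-1.16, adjusted p = 0.00602, edgeR). Hif1a and Myc, picked out after their values were seen, did not pass. Hif1a stood at 593 and 536 TPM in WT and 433 and 435 in KO (-0.48, adjusted p = 0.0920, edgeR), and Myc at 376 and 354 TPM in WT and 472 and 317 in KO, where KO 1 was above both WT libraries and KO 2 below them. The regulators had 1 rise and 6 falls without KO 1 and 7 falls without KO 2, where 18.7% and 24.0% of all genes were called lower.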

How the data were processed

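RNA-seq was measured in 4 libraries. The deposited table gives RSEM expected counts, which are the authors' estimated reads per gene, without normalisation, per the file headers. The deposited FPKM values are relative to gene length and to library size, per the file headers. The deposited TPM values are also relative to length and sum to the same total in every library, per the file headers. Per the submitters' processing notes, RSEM 1.2.12, HISAT2 2.0.4 and Bowtie2 2.2.5 were used with GRCm38.p6, with no role or order given.

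Expected counts were rounded, filtered with filterByExpr (minimum count 10, minimum total 15; 12680 genes kept), scaled by TMM and tested with the robust quasi-likelihood test of edgeR 4.0.16 under R 4.3.3. Genotype was the single term, with Benjamini-Hochberg adjustment over all 12680 genes. Genes with an adjusted p under 0.05 are called. The F statistic gave the standard errors of log2 fold changes. Levels between genes are compared in TPM. Fold changes come from the counts, so they differ slightly from ratios of TPM. Alternatives used limma 3.58.1 on log2(TPM + 1) and DESeq2 1.42.0. Only the edgeR fit was tried on simulated counts, whose spread followed the trend over genes and not the spread of each gene. Shares, ratios and motif searches were not simulated, and no result here rests on that trial.

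The mice are separate animals, with 4 cultures in all. The edgeR p-values of the full fit set the genotype difference against the spread within genotypes, with 2 residual degrees of freedom. That spread is moderated across genes, with a median of 3.58 prior degrees of freedom. The 9 genes, the pathway lists, motifs and markers were chosen with earlier results of these data known. Named are Mapkapk5, the 9 genes, Hk3, Hkdc1, and up to 2 called genes per list and direction with the smallest p. Other genes of a list are named where 5 or fewer were counted. Fbp1 and Fbp2 were looked up but not found among the genes measured, so they were not tested.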

Additional observations from a re-analysis of the deposited data

How the results depend on the processing

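The log2 fold changes of the 9 enzyme genes stayed below 0 under every alternative run. Of the 9 genes 8 were called with TMM scaling, with DESeq2 size factors, with no filter on low counts and without robust estimation, 7 with library size alone and in limma on log2(TPM + 1), and 9 with the DESeq2 test. Leaving out 1 library gave 2 to 9 called enzymes and 693 to 5999 called genes of all tested, beside 1695 in the full fit. The lone library of a genotype is then assumed to vary like the other pair. As shares of expected counts, not scaled to length, Aldoc differed by -4.60 points between genotypes in place of -2.65. Mouse numbers restart in each genotype and the labels tie them to no litter, batch or day. The deviations of same-numbered mice correlated across genes at r = 0.197. With the replicate number as a block, 2935 genes were called, Hk2 passed (log2 fold change -0.74, adjusted p = 0.00567, edgeR) and Aldoc did not (-3.57, adjusted p = 0.0700). Relative counting error was widest for Aldoc, which had 215 counts in KO 1, followed by Pfkm with 391 counts in the same library.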
